A study of Homo sapiens with 18 samples.

Results

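The promoters of 39 genes of homologous recombination and the Fanconi anaemia pathway were examined in 6 human ovarian cancer cell lines by ATAC-seq, an assay in which the Tn5 transposase cuts and tags DNA where chromatin is open. A gene's promoter was taken as the windows of the deposited table that overlap 1 kb on either side of its GENCODE canonical transcription start on hg19, the build also called GRCh37. All 39 genes had such a window, 82 windows of the 89428 in the table, against 14139 of 19856 protein-coding genes (71.2%). Each gene was then described by its start window, the one whose centre lies nearest the start. For 38 of the 39 genes that window holds the start. The exception is CHEK1, whose start window begins downstream of the start and has its centre 542 bp from it. The window over the CHEK1 start itself was not analysed here.

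Homologous recombination repairs a double-strand break by copying an intact sister DNA molecule. The broken ends are resected, BRCA1, PALB2 and BRCA2 prepare the single strand to invade the intact copy, and RAD51B, RAD51C, RAD51D, XRCC2, XRCC3 and the RAD54 proteins assist strand exchange. The Fanconi pathway acts on DNA interstrand crosslinks, lesions that platinum drugs make: a nuclear complex attaches ubiquitin to FANCD2 and FANCI, and nucleases then unhook the crosslink for repair by recombination. Loss of these functions is a well-known source of platinum sensitivity in ovarian cancer.

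Of the 6 lines, 3 are labelled platinum-sensitive and 3 platinum-resistant, in 3 related pairs. A2780, a sensitive line labelled as endometrial/ovarian cancer cells, is the parent of CP70, which was made resistant by selection in culture. PEA1 (sensitive) and PEA2 (resistant) came from the same patient, as did PEO1 (sensitive) and PEO4 (resistant), in both cases before and after clinical resistance to platinum. All 6 were grown in RPMI-1640 medium with glutamine and serum, no drug treatment is labelled, and each line gave 3 libraries. Every state is a single line, so resistance cannot be told apart from any other difference between the lines of a pair. The labels do not say that the 3 libraries of a line came from separate cultures, so the p-values measure only the spread between libraries.

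Accessibility is given as FPKM, the fragments in a window scaled to its length and to the library's mapped reads. Libraries held 8963079 to 60435027 reads, and the member start windows held a median of 52 to 202 reads a library, with the lowest at 9. The share of reads that fell in the table's windows ran from 9.26% ± 0.832 (SD, n = 3) in A2780 to 39.9% ± 0.949 in PEO1, so levels were not compared between pairs as deposited. Changes are therefore given relative to promoters: the log2 of FPKM + 0.1, minus the library's median over 13133 start windows of coding genes, tested by limma with p-values adjusted over all windows. CP70 replicate 1 stood apart as deposited, with the highest value of its line at 37 of the 39 members, and its median over start windows was 3.86 FPKM against 2.63 and 2.64 in the other two. Of the marker lists, all 5 epithelial genes and 4 of 5 Müllerian or serous genes had a promoter window in the table, as had all 4 mesenchymal genes, and none of the 4 leukocyte and 2 endothelial genes did. Listing took over 2 FPKM in any 2 of the 18 libraries, so it does not show an open promoter in every line. The epithelial genes were low in A2780, from percentile 6.11 (KRT8) to 12.1 (KRT7). PEA1 had EPCAM, KRT7 and CDH1 at 8.59, 4.99 and 7.52, but KRT8 at 37.7 and KRT18 at 32.1. PEO1 ranged from percentile 19.1 (CDH1) to 71.3 (EPCAM). The summed mesenchymal level was 20.6 FPKM in PEA1 and 6.48 in PEA2, and its part in the PEA changes was not tested. VIM gave 10.2 FPKM of the PEA1 sum and fell from percentile 99.1 to 22.2. COL1A1 (75.6 to 22.5) and ZEB1 (84.9 to 38.4) fell as well, whereas COL1A2 rose from percentile 1.32 to 9.73. For the other pairs the sum was 6.48 (A2780) and 10.7 (CP70), and 13.6 (PEO1) and 18.6 (PEO4). These sums are as deposited, and CP70 also had the higher median start window, 3.07 FPKM against 1.99 for A2780. The PEO medians were 7.06 (PEO1) and 6.94 (PEO4). MUC16 was the Müllerian gene without a window. PAX8, a Müllerian marker, was low in A2780 and CP70, at percentiles 4.64 and 8.51 of start windows. The list did not agree within the PEO lines. SOX17 was low in PEO1 and PEO4 (2.73 and 2.65), while WT1 was high (85.5 and 92.4). In PEA2 MSLN was at percentile 8.52 and WT1 at 76.3.

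The member promoters were rich in G and C. The start windows held 49.5% to 73.5% G and C (median 59.2%, against 62.4% over all start windows), and 37 of 39 (94.9%) had over 50% G and C with a ratio of observed to expected CpG over 0.6, as had 80% of all start windows. The sequences of 5 promoters that were among those with the largest rises or falls between resistant and sensitive lines are shown, as the 250 bases before the canonical start, 5′ to 3′ on the gene's strand, from GRCh37. Capitals mark the motifs searched for on both strands, and FAN1 and RBBP8 held none of them in this stretch.
FANCE (chr6:35419865-35420114, plus strand): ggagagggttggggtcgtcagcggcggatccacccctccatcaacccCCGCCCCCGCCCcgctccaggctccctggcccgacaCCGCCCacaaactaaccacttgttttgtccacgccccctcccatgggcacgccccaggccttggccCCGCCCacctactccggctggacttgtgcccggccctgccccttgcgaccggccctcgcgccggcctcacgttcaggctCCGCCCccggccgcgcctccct
XRCC2 (chr7:152373227-152373476, minus strand): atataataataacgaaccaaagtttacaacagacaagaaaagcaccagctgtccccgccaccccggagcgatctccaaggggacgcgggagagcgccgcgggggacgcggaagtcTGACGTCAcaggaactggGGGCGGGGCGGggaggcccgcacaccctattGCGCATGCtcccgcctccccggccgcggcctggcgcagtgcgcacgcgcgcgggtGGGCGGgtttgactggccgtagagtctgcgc
FAN1 (chr15:31195868-31196117, plus strand): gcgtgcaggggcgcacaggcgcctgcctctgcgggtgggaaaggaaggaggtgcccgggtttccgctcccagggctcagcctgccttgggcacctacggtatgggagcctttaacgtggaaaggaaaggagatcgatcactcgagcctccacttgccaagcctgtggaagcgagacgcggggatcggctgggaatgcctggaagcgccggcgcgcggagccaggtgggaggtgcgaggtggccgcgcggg
RBBP8 (chr18:20513041-20513290, plus strand): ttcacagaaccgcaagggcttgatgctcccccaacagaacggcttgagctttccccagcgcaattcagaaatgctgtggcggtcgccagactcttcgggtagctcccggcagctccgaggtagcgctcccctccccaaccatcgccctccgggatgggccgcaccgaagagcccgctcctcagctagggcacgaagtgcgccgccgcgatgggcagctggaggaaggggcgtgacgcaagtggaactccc
FANCF (chr11:22647370-22647619, minus strand): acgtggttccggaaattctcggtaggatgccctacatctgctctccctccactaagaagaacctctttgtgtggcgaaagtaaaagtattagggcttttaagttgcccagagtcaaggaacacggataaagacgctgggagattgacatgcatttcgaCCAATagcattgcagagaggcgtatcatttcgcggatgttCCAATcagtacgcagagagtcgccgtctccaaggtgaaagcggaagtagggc

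The motifs were E2F (TTTCGCGC, TTTGGCGC, TTTCCCGC or TTTGCCGC), NRF1 (GCATGCGC), NFY (CCAAT), SP1 (GGGCGG), ETS (CCGGAAG), CRE (TGACGTCA), CHR (TTTGAA) and YY1 (AAGATGGCG), each named for the factor or promoter element it is known for. They were counted from 250 bases before to 50 bases after the start, and matches of one motif may overlap those of another. The capitals in FANCE are 5 SP1 matches, and XRCC2 holds matches to CRE, SP1 (3, the first 2 of which share a base) and NRF1. In FANCF they mark 2 NFY matches. XRCC2 also has an E2F match and RBBP8 an SP1 match in the counted span, neither lying whole within the printed stretch. An E2F match stood in 6 of 39 member promoters (15.4%), against 4.37% of all 19856 coding promoters and 5.4% of those with a window in the table. The ETS letters were in 12 (30.8%, against 14.2% and 18.4%) and the SP1 letters in 25 (64.1%, against 61.5% and 75.3%). NFY stood in 17 (43.6%, against 36% and 35.8%), CHR in 6 (15.4%, against 11.4% and 8.38%), NRF1 in 4 (10.3%, against 4.27% and 5.5%) and CRE in 2 (5.13%, against 2.68% and 3.32%). YY1 was in none, against 2.85% and 3.9%. These counts describe letters in a window and are not binding sites. A protein-coding gene on the opposite strand starts within 1 kb of 10 members, among them BRCA2 (ZAR1L), ATM (NPAT), PALB2 (DCTN5), RAD51C, MRE11, CHEK2 and HELQ, and accessibility there cannot be told apart between the genes.

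The members covered a wide range of levels. BARD1, the ring-finger partner of BRCA1, was highest over the mean of the 6 lines, at 20.9 FPKM (99.7th percentile of start windows), followed by XRCC3 (15), NBN (13.7), FANCF (13.6) and ATM (10.6). RAD51C was lowest at 1.78 FPKM (12.6th percentile), followed by RAD51B (2.27), RAD51D (2.37), FANCD2 (2.71) and BRCA2 (2.74). All windows have one length, so these levels are per length, and the order of neighbours was not tested. The mean over lines as deposited weighs the PEO lines most. Ranked instead by the median over lines of the percentile among start windows, the same 5 genes were lowest, from RAD51C at percentile 18.9 to BRCA2 at 30.8, and the same 5 highest, from ATM at 92.2 to BARD1 at 99.2. Within lines, the lowest member was RAD51B in A2780 and CP70, RAD51C in PEO1 and PEO4, FANCD2 in PEA1 and RMI2 in PEA2. The median member lay at the 56.4th to 68.2nd percentile of start windows in each line, and between 23 (CP70) and 28 of the 39 were above the median start window. The mediators of strand exchange stood at both ends, with RAD51B, RAD51C and RAD51D low and XRCC3 high. The 43 other member windows were lower, with a median of 2.31 FPKM against 5.05 in the start windows. Another window exceeded the start window at 4 genes, BRCA2, ATM, CHEK1 and RMI1.

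**Figure D1:**
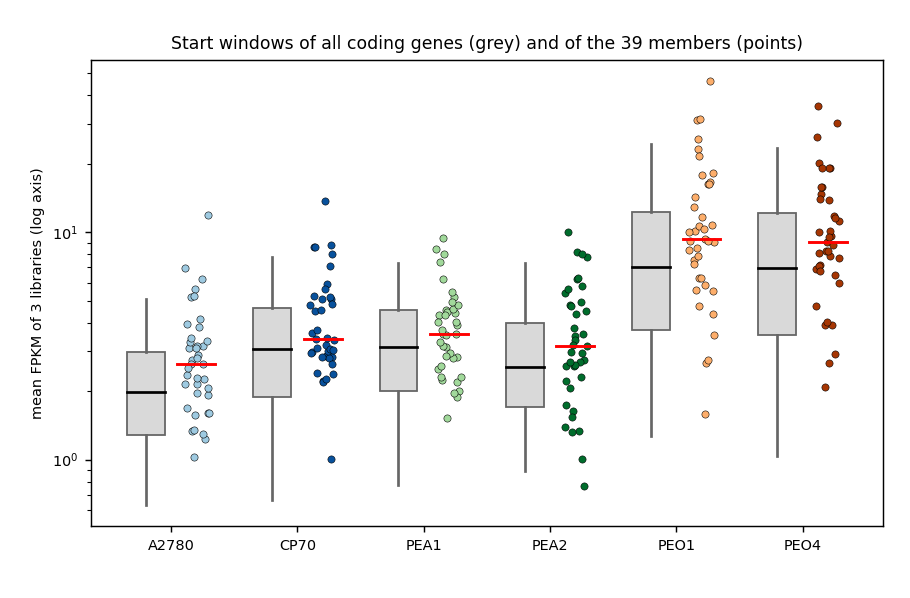
Mean FPKM of 3 libraries on a log axis for each line. Grey boxes give the quartiles of 13133 coding-gene start windows, with lines to the 5th and 95th percentile, and points are the 39 members with their median in red. The members' median lies above that of all start windows in the 6 lines, from 3.15 against 2.56 FPKM in PEA2 to 9.34 against 7.06 in PEO1.

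Between the 6 lines, 23 of 39 members had a range of line means over 1 log2 unit with an F-test adjusted p under 0.05 (limma), against 71.6% of the start windows tested. The members' median range was 1.14, against 1.33 for all start windows, and 38 of 39 passed the F-test alone. The share of all start windows that passed the F-test alone was not counted. RMI2 (2.06), XRCC2 (2.03), FANCE (1.95), RAD51C (1.76) and SLX4 (1.66) had the widest ranges, in log2 units. FANCG, a scaffold of the Fanconi core complex, had the narrowest at 0.33 (limma F-test adjusted p = 0.187), and its promoter lay between -0.0086 and 0.32 relative to the promoter median in each of the lines. PEO1 gave the highest value of the 6 lines for 13 members and the lowest for 8, whereas PEA1 gave the highest for 2 and the lowest for 10. The wide members differed in which line was extreme, as the heat map of the libraries shows.

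**Figure D2:**
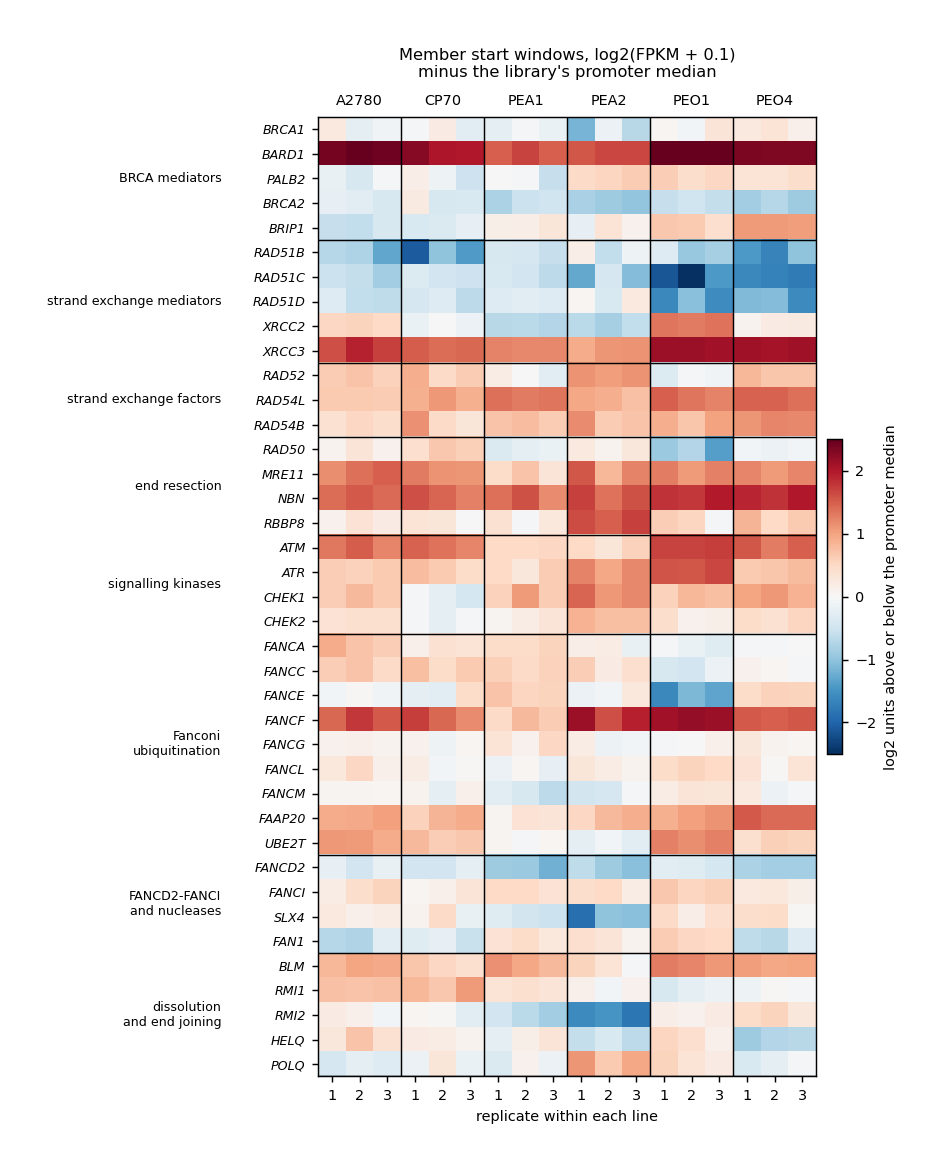
Each cell is the log2(FPKM + 0.1) of a member's start window in a library, minus that library's median over coding-gene start windows, with members grouped by role and the 3 replicates of each line side by side. RAD51C has the lowest line means, at -2.21 in PEO1 and -1.69 in PEO4. Other blue cells include RMI2 (-1.62) and SLX4 (-1.31) in PEA2, RAD51B in CP70 (-1.51), and RAD51D (-1.41) and FANCE (-1.35) in PEO1. BARD1, XRCC3, NBN and FANCF are red throughout.

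Between the resistant and sensitive line of each pair, changes at the members were frequent but moderate. At a log2 fold change over 2 as deposited and an adjusted p under 0.001, 0 of 39 passed in any pair by limma, and 0 by edgeR, although 17, 19 and 23 had an unadjusted p under 0.05 in the A2780, PEA and PEO pairs. Of all start windows tested, 0.248%, 1.94% and 1.16% passed. Without PEO1 replicate 2, 1 member passed in the PEO pair. FANCE came nearest, at 1.86 in PEO4. Relative to promoters and at an adjusted p under 0.05, 1 member was higher and 5 lower in CP70, 11 higher and 8 lower in PEA2, and 10 higher and 14 lower in PEO4. Of the start windows tested, 7.59% rose and 9.82% fell in the A2780 pair, 33.1% rose and 28.6% fell in the PEA pair, and 28.6% rose and 31.4% fell in the PEO pair. As shares of the 39 members these counts are 2.56% and 12.8%, 28.2% and 20.5%, and 25.6% and 35.9%, near that background. Relative to promoters, the libraries of the 2 lines did not overlap at 14, 23 and 26 members in the A2780, PEA and PEO pairs. The shares of start windows without overlap were 34.4%, 65.3% and 63.7%, so a lack of overlap was common. In the A2780 pair 6 members were called in all, against 3, 2, 3 and 3 without A2780 replicate 1, 2 or 3 or CP70 replicate 2. The members' median log2 fold changes were -0.066, -0.008 and -0.03, beside 0.0059, 0.029 and -0.013 for all start windows.

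The split between higher and lower depended on the scaling. As deposited, 12 members were higher and 0 lower in CP70, where 44% of start windows were higher and 1.5% lower and the median start window was at 0.58. Those 12 calls became 6 without A2780 replicate 1 and 3 without A2780 replicate 3. In PEA2, 5 were higher and 12 lower as deposited (start windows 18.1% and 35.5%), 11 calls in all without PEA2 replicate 3, and in PEO4 7 were higher and 13 lower (start windows 26.2% and 31.2%). Centring on all windows, which puts promoters at a median of -0.74 in PEA2 and 0.30 in PEO4, gave 3 higher and 28 lower in PEA2 and 21 higher and 6 lower in PEO4. Quantile normalization gave 6 and 23 in PEA2 and 17 and 10 in PEO4. With edgeR's TMM scaling the counts were 4 and 26 in PEA2 and 21 and 8 in PEO4. Once each 5 Mb bin's median was taken out they were 2 and 26 in PEA2 and 13 and 2 in PEO4. All start windows moved the same way. In PEA2 their median was -0.48 by quantile normalization, -0.59 by TMM and -0.43 with the 5 Mb median removed. In PEO4 it was 0.17, 0.28 and 0.21. The share of start windows called was not counted for these scalings. Summed up after the values were seen, and counting these, the deposited and promoter-relative values and GC-matched centring as 7 scalings, 5 members of the PEO pair changed the same way in all 7, RAD52, RAD54B, FANCC and FANCE higher and XRCC2 lower. In the PEA pair 6 were lower in all 7, RAD54L, FANCA, FANCE, BLM, RMI2 and HELQ, and none was higher. No member of the A2780 pair was called in all 7. The sign turned under at least 1 scaling for 4 of the 6 members called relative to promoters in CP70, 12 of the 19 in PEA2 and 8 of the 24 in PEO4. FANCE was thus lower in PEA2 and higher in PEO4 under each of the 7 scalings. How many of all start windows kept or turned their sign over the scalings was not counted. These member counts therefore cannot be called particular to the members.

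**Figure D3:**
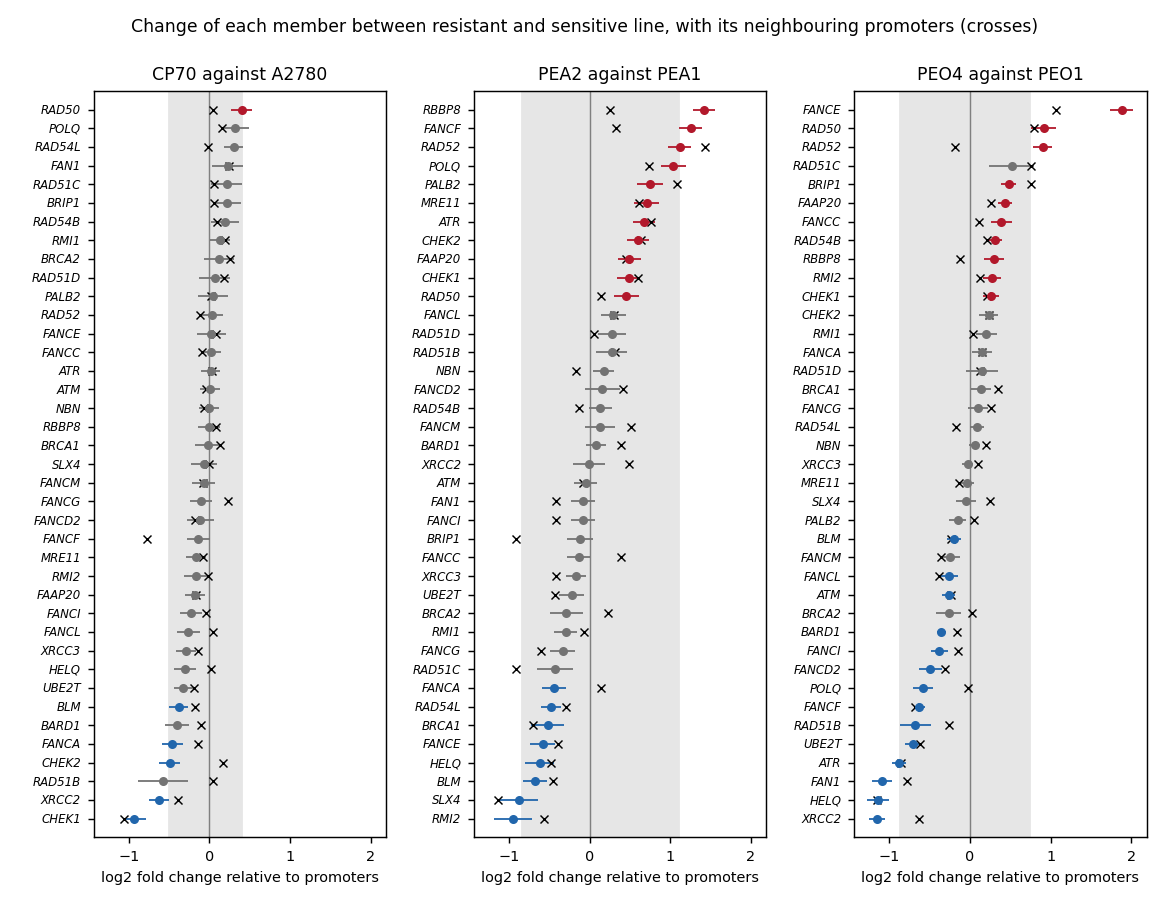
Log2 fold change of each member relative to promoters, resistant against sensitive line, with SE bars. Red and blue points passed an adjusted p under 0.05, grey bands span the 10th to 90th percentile of all start windows tested, and crosses are the median change of the other start windows in the same 5 Mb bin. Most points lie within the band (35, 34 and 32 of 39), and crosses follow the points most closely in the PEO pair.

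Of the 5 genes of the BRCA1-PALB2-BRCA2 group, none was called in CP70, PALB2 rose and BRCA1 fell in PEA2, and BRIP1 rose and BARD1 fell in PEO4. BRCA1, a ubiquitin ligase that starts resection and recruits PALB2, gave 2.85, 3.36 and 2.25 FPKM in the PEA1 libraries and 1.15, 2.2 and 1.55 in PEA2. The libraries overlapped relative to promoters, and the log2 fold change of -0.52 (adjusted p = 0.0271, SE 0.208) lost its call without any 1 of 3 libraries, at -0.27 without PEA2 replicate 1, -0.46 without PEA1 replicate 2 and -0.51 without PEA2 replicate 3. In CP70 and PEO4 the BRCA1 values relative to promoters were -0.016 and 0.14 and were not called. Over the 7 scalings BRCA1 was called higher in 3 in PEO4. BRCA2, which acts after PALB2 on the resected strand, read 4.65, 5.15 and 4.46 FPKM in PEO1 and 3.78, 4.46 and 3.49 in PEO4. It was called in no pair relative to promoters, its values being 0.12 (CP70), -0.29 (PEA2) and -0.26 (PEO4). Over the 7 scalings BRCA2 was called lower in 5 in PEA2. PALB2, the bridge between BRCA1 and BRCA2, gave 3.4, 3.33 and 1.68 FPKM in PEA1 and 3.79, 3.58 and 4.04 in PEA2. All PEA2 libraries were above the PEA1 ones, and the rise of 0.75 (adjusted p = 0.00019, SE 0.163) stood beside a median of 1.08 over 26 other start windows within its 5 Mb bin. Its sign turned when centred on all windows (-0.019) and with the 5 Mb median removed (-0.72). BRIP1, a helicase that binds BRCA1, rose in PEO4 from 11.2, 11.6 and 9.14 to 14.8, 15.6 and 13.6 FPKM with no overlap. That log2 fold change was 0.48 (adjusted p = 4.7e-05, SE 0.097), and the value after removal of the 5 Mb median was -0.065. BARD1 fell in PEO4 with a change of -0.35 (adjusted p = 2.5e-06, SE 0.0589) on the log2 scale.

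Among RAD51B, RAD51C, RAD51D, XRCC2 and XRCC3, a family of related proteins that mediate strand exchange, XRCC2 had the largest change. Its start window (chr7:152372700-152373700) gave 17.7, 18.1 and 17.5 FPKM in PEO1 and 7.38, 8.59 and 7.62 in PEO4. The groups lay far apart, with a log2 fold change of -1.15 (adjusted p = 8.6e-13, SE 0.0968), larger than the -0.64 of the 32 other start windows nearby, and it stayed lower under all scalings (-1.17 to -0.41). In CP70 XRCC2 also fell relative to promoters with a change of -0.63 (adjusted p = 0.00265, SE 0.127), although FPKM as deposited was 2.88, 3.33 and 2.48 in A2780 and 3.41, 2.63 and 2.39 in CP70. In the PEA pair it read -0.008. RAD51B, another member of that family, fell in PEO4 with a change of -0.68 (adjusted p = 0.00224, SE 0.192). RAD51C, RAD51D and XRCC3 were called in no pair relative to promoters. RAD51C spread widely between the PEO1 libraries, with 1.52, 0.785 and 2.45 FPKM in PEO1 and 2.21, 2.21 and 1.84 in PEO4, and its log2 fold change of 0.52 (adjusted p = 0.1, SE 0.28) rose to 0.90 and passed without PEO1 replicate 3, and was 0.088 without PEO1 replicate 2. For RAD51D the log2 fold changes were 0.065, 0.28 and 0.15 in the A2780, PEA and PEO pairs.

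RAD52, which anneals single strands, was higher in both patient-derived resistant lines. Its libraries read 5.46, 7.15 and 6.35 FPKM in PEO1 and 12.5, 12.1 and 10.6 in PEO4, and 3.84, 3.46 and 2.11 in PEA1 and 5.99, 5.14 and 5.72 in PEA2. Neither pair overlapped. The PEO change was 0.90 (adjusted p = 1.8e-08, SE 0.116), while 24 other start windows of its bin had a median of -0.19 and windows that start no coding gene one of -0.54. The PEA change was 1.12 (adjusted p = 8.9e-08, SE 0.143), below the 1.43 of its neighbours, and turned to -0.61 after removal of the 5 Mb median. RAD54L, a motor protein that drives strand exchange, fell in PEA2 with a change of -0.48 (adjusted p = 0.00137, SE 0.125), and RAD54B, its relative, rose in PEO4 by 0.30 (adjusted p = 0.0043, SE 0.0932).

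Relative to promoters, the end-resection genes were higher or not called in each pair, but under other scalings some were called lower in PEA2. RBBP8 encodes CtIP, which starts resection together with the MRE11-RAD50-NBN nuclease complex. Its window (chr18:20512800-20513800) read 4.39, 3.3 and 3.07 FPKM in PEA1 and 8.52, 6.99 and 8.65 in PEA2, so that every PEA2 library was above every PEA1 library. The log2 fold change was 1.41 (adjusted p = 7.2e-10, SE 0.137), the largest rise of a member in that pair. The 16 other start windows of its 5 Mb bin had a median of 0.25, and its 159 windows that start no coding gene had one of 2.16. The sign turned to -0.47 once the median of all tested windows of the bin was removed. Under that scaling the median of all start windows in PEA2 was -0.43. RAD50, the ATPase of the complex, was higher in all 3 resistant lines relative to promoters, a pattern singled out after its values were seen. It read 3.64, 4.36 and 2.56 FPKM in PEO1 and 6.63, 6.67 and 6.23 in PEO4, without overlap, with a log2 fold change of 0.91 (adjusted p = 4.3e-06, SE 0.158) beside 0.79 for its neighbours. In PEA2 the change was 0.45 (adjusted p = 0.0113, SE 0.156), which turned sign under 4 scalings, and the call was lost without PEA1 replicate 1 (0.40). In CP70 it was 0.40 (adjusted p = 0.0461, SE 0.13), and that call was lost when any library but CP70 replicate 1 was left out (0.35 to 0.48). MRE11, the nuclease, rose in PEA2 by 0.71 (adjusted p = 0.00023, SE 0.156) relative to promoters, a sign that turned when centred on all windows (-0.061) and with the 5 Mb median removed (-0.56). The smaller RBBP8 call in PEO4 (0.30, adjusted p = 0.0393, SE 0.128) was lost without PEO1 replicate 3 (0.089), PEO4 replicate 1 (0.20) or PEO4 replicate 3 (0.30). NBN, which brings the complex to ATM, was called in no pair relative to promoters (0.00032, 0.17 and 0.058), with 24.7, 25 and 27.1 FPKM in PEO1 and 26.3, 26.2 and 26.5 in PEO4. Over the 7 scalings NBN ran from -0.60 to 0.17 in PEA2 and was called lower in 3.

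The signalling kinases differed between pairs. ATR, which responds to single-stranded DNA, read 20.9, 21.7 and 22 FPKM in PEO1 and 11.1, 12.1 and 11.4 in PEO4. Its change of -0.88 (adjusted p = 3.5e-11, SE 0.0857) stood beside the -0.86 of 18 neighbouring start windows, and removal of the 5 Mb median brought it to 0.14. In PEA2, ATR rose by 0.67 (adjusted p = 8.8e-05, SE 0.137), with neighbours at 0.76, and its sign turned when centred on all windows (-0.094) and with the 5 Mb median removed (-0.83). CHEK1, the kinase that ATR activates, read 3.1, 4.01 and 2.79 FPKM in A2780 and 3.79, 2.21 and 1.93 in CP70. As deposited the ranges overlap, but relative to promoters they did not, and the change of -0.93 (adjusted p = 0.0002, SE 0.14) was the largest of the pair. The 16 other start windows of its bin had a median of -1.06, and the change after removing the bin's median was 0.12. CHEK1 rose relative to promoters in PEA2 (0.49, adjusted p = 0.0037, SE 0.143) and in PEO4 (0.26, adjusted p = 0.0201, SE 0.098), the first with its sign turned under 3 scalings and the second with its call lost without PEO1 replicate 1 (0.18), PEO4 replicate 1 (0.26) or PEO4 replicate 2 (0.20). CHEK2, the kinase downstream of ATM, fell in CP70 with a change of -0.49 (adjusted p = 0.0161, SE 0.132), with the call lost without A2780 replicate 2 or 3 or CP70 replicate 2 (-0.49 to -0.43), and rose in PEA2 by 0.60 (adjusted p = 0.00038, SE 0.139). The rise turned sign when centred on all windows (-0.17) and with the 5 Mb median removed (-0.47), and the fall as deposited (0.083). ATM, the kinase of double-strand breaks, was 22.8, 23.9 and 22.7 FPKM in PEO1 and 20.6, 18.1 and 18.5 in PEO4. Its change of -0.26 (adjusted p = 0.0034, SE 0.0784) was not called without PEO4 replicate 2 (-0.18), and it turned sign under 3 scalings.

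In the Fanconi ubiquitination machinery, FANCE stood out. FANCE links the core complex to FANCD2, and its start window (chr6:35419500-35420500) gave 2.23, 3.32 and 2.67 FPKM in PEO1 and 9.59, 11.1 and 9.66 in PEO4. Every PEO4 library was far above every PEO1 library. The log2 fold change of 1.88 (adjusted p = 1.3e-13, SE 0.146) was at the 99.6th percentile of start windows and ranged from 1.07 to 2.20 over the scalings. Its 34 neighbouring start windows had a median of 1.07 and the other windows of the bin one of 0.92. In the PEA pair FANCE read 5.54, 5.02 and 3.79 FPKM in PEA1 and 2.42, 2.31 and 3.11 in PEA2, lower in every PEA2 library, with -0.58 (adjusted p = 0.00108, SE 0.15). PEO1 had the lowest FANCE value of the 6 lines relative to promoters (-1.35) and PEA1 the highest (0.60). FANCF, the adaptor of the complex, moved the other way. Its libraries gave 4.71, 6.07 and 4.03 FPKM in PEA1 and 12.3, 7.57 and 10.1 in PEA2, against 30.05, 33.9 and 30.8 in PEO1 and 20.3, 21 and 19.3 in PEO4. FANCF rose in PEA2 by 1.25 (adjusted p = 8.2e-09, SE 0.139), beside 0.32 for 7 start windows and 1.63 for the other windows of its bin, and it was -0.087 after removal of the bin's median. In PEO4 it fell with a change of -0.63 (adjusted p = 6e-10, SE 0.0687), beside -0.69 for its neighbours, and was 0.093 with the bin's median removed. FANCA, a core subunit, fell in PEA2 from 4.68, 4.77 and 3.79 to 3.02, 2.77 and 2.26 FPKM. That change of -0.44 (adjusted p = 0.0103, SE 0.149) had neighbours at 0.14, and the call was lost without PEA2 replicate 3 (-0.32). The FANCA fall in CP70 (-0.46, adjusted p = 0.0214, SE 0.129) was relative to promoters, the deposited value being 0.12, and the call was lost without A2780 replicate 1 (-0.37) or 2 (-0.48). FANCC, another core subunit, rose in PEO4 by 0.39 (adjusted p = 0.00966, SE 0.132), a call lost without PEO4 replicate 1 (0.35). FANCG was called in no pair relative to promoters (-0.10, -0.33 and 0.10). UBE2T, the E2 enzyme of the reaction, fell in PEO4 with a change of -0.71 (adjusted p = 3.5e-08, SE 0.0941), and FANCL, its ligase partner, with one of -0.26 (adjusted p = 0.0389, SE 0.113). With the 5 Mb median removed, UBE2T was at 0.17 and FANCL at 0.30, and the FANCL call was lost without PEO1 replicate 2 (-0.24), PEO1 replicate 3 (-0.26) or PEO4 replicate 2 (-0.16).

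Of the FANCD2-FANCI pair and the 2 nuclease genes listed with it, FANCD2, FANCI and FAN1 fell in PEO4, SLX4 fell in PEA2 and none was called in CP70. FANCD2 read 5.77, 5.93 and 5.02 FPKM in PEO1 and 4.01, 4.08 and 3.59 in PEO4, a log2 fold change of -0.49 (adjusted p = 0.00376, SE 0.147), and the value under all-window centring was -0.17 and not called. FANCI, its partner, fell with a change of -0.38 (adjusted p = 0.00216, SE 0.108). FAN1, a nuclease for crosslinks, read 10.9, 10.5 and 9.59 FPKM in PEO1 and 4.48, 4.56 and 5.18 in PEO4, without overlap. Its log2 fold change was -1.09 (adjusted p = 2.3e-09, SE 0.128), beside -0.78 over 20 neighbouring start windows, and it was -0.15 and not called after removal of the bin's median. SLX4, the scaffold that holds the unhooking nucleases, read 2.72, 2.46 and 1.73 FPKM in PEA1 and 0.659, 1.16 and 1.2 in PEA2. The SLX4 change of -0.88 (adjusted p = 0.0016, SE 0.235) was smaller than that of its 119 neighbouring start windows (-1.13) and of 394 other windows of the bin (-1.64), so its sign turned to 0.49 when the bin's median was removed.

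Of the genes of strand dissolution and end joining, RMI2 had the lowest percentile among start windows of any member in a line, in PEA2. Relative to the promoter median RAD51C was lower, at -2.21 in PEO1 against -1.62 for RMI2 in PEA2. RMI2, with BLM, RMI1 and a topoisomerase, dissolves crossed DNA strands. It read 2.4, 2.12 and 1.34 FPKM in PEA1 and 0.824, 0.809 and 0.666 in PEA2, the 3.37th percentile of start windows, with no overlap. Its log2 fold change of -0.95 (adjusted p = 0.00077, SE 0.236) stayed lower under all scalings (-1.72 to -0.92), with neighbours at -0.56. In PEO4 RMI2 was higher (0.28, adjusted p = 0.0309, SE 0.114), a call lost without PEO1 replicate 2 (0.25), PEO4 replicate 1 (0.26) or PEO4 replicate 2 (0.21). BLM, the helicase of that complex, was the 1 member lower in all 3 pairs, a pattern singled out after its values were seen. In PEA2 it fell from 7.5, 6.76 and 4.51 to 4.01, 3.12 and 2.48 FPKM, a change of -0.68 (adjusted p = 0.00028, SE 0.152). In CP70 (-0.38, adjusted p = 0.0405, SE 0.121) and PEO4 (-0.20, adjusted p = 0.0425, SE 0.0876) the calls were small, each was lost without any of 5 of the 6 libraries (-0.43 to -0.31 in the A2780 pair and -0.22 to -0.16 in the PEO pair), and each turned sign under at least 1 scaling. HELQ, a helicase of crosslink repair, read 10.2, 9.77 and 7.47 FPKM in PEO1 and 3.72, 4.42 and 3.99 in PEO4, and 2.85, 3.8 and 3.21 in PEA1 and 1.76, 1.85 and 1.6 in PEA2. Both pairs were free of overlap. HELQ changed by -1.13 (adjusted p = 4.7e-09, SE 0.137) in PEO4, beside -1.16 for neighbours, and by -0.62 (adjusted p = 0.00297, SE 0.178) in PEA2, beside -0.48. After removal of the bin's median the PEO value was 0.24. POLQ, the polymerase of a mutagenic end-joining route, rose in PEA2 from 2.6, 3.68 and 2.3 to 5.88, 3.87 and 5.1 FPKM, by 1.04 (adjusted p = 1.2e-06, SE 0.156), beside 0.73 for its neighbours. In PEO4 it fell with a change of -0.58 (adjusted p = 0.00013, SE 0.127), beside -0.028.

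**Figure D4:**
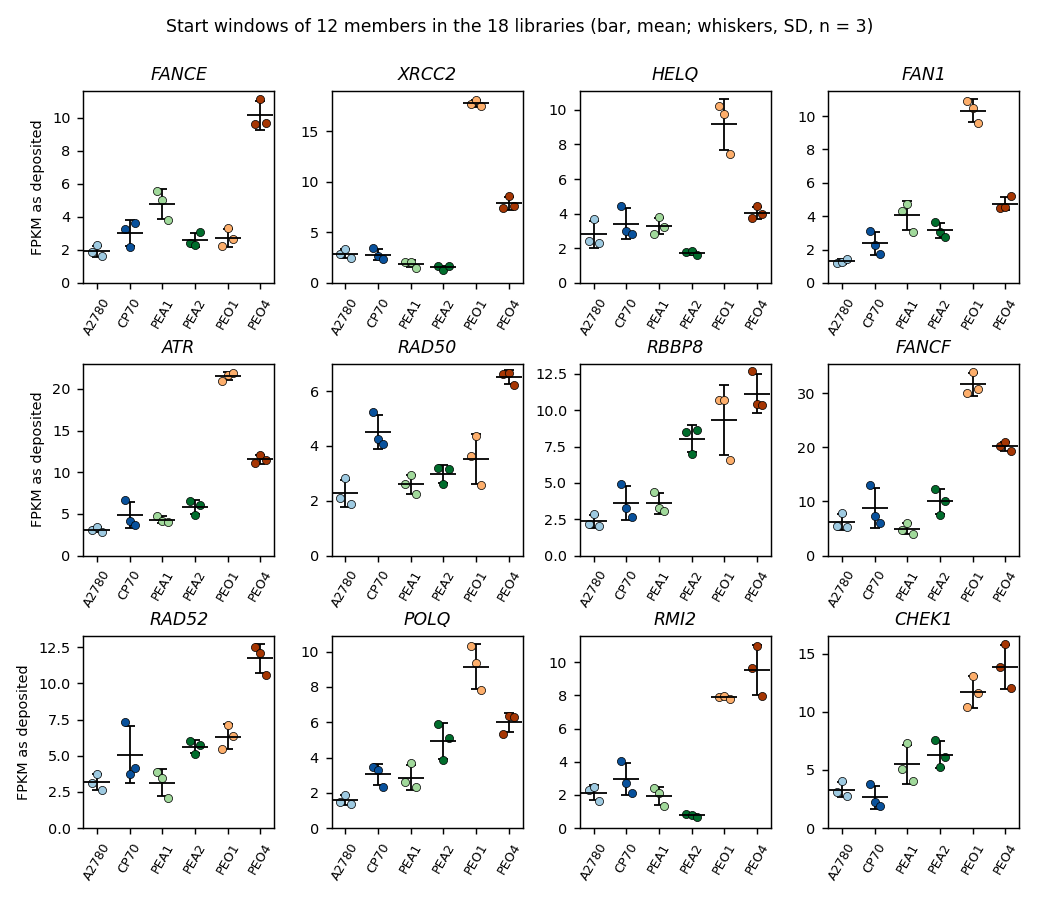
FPKM as deposited for 12 members in each of the 18 libraries, with the mean and SD of 3 libraries per line. Levels can be read within a pair only. FANCE is at 9.59 to 11.1 FPKM in PEO4 and 2.23 to 3.32 in PEO1, and XRCC2 is at 17.5 to 18.1 in PEO1 and 7.38 to 8.59 in PEO4.

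Changes of the members went with those of their neighbourhood. Over the 39 members, which lie in 38 bins of 5 Mb, the log2 fold change relative to promoters and the median of the other start windows in the bin had a Pearson r of 0.59 and a Spearman rho of 0.57 in the A2780 pair, 0.76 and 0.80 in the PEA pair, and 0.85 and 0.81 in the PEO pair. This is a description across genes, which share libraries. The same r over all start windows was 0.52, 0.73 and 0.71. Of the called members, 5 of 6, 18 of 19 and 22 of 24 had the sign of their neighbours, a share not counted over all called start windows. From that median of start windows, 3, 6 and 4 members differed by over 0.5 log2 units, among them RBBP8 and FANCF in PEA2 and RAD52 and FANCE in PEO4. Against the windows of the bin that start no coding gene, 3, 25 and 7 members differed by over 0.5, with a median gap of -0.62 in PEA2, and 4 of 6, 14 of 19 and 20 of 24 called members had the same sign. Copy number was not measured, so the number of DNA copies and the accessibility of each copy cannot be told apart here.

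Members whose change differed between pairs were sought with an interaction test in limma, at a difference over 1 log2 unit and an adjusted p under 0.05. Between the PEA and A2780 pairs 5 members passed (start windows 26.5%), between the PEO and A2780 pairs 3 (15.1%), and between the PEA and PEO pairs 8 (37.5%). These shares of 12.8%, 7.7% and 20.5% of 39 were below those of all start windows. FANCE had the largest difference, -2.46 (adjusted p = 2.4e-12, SE 0.211) for the PEA minus the PEO change, and FANCF the next at 1.88 (adjusted p = 1.1e-12, SE 0.156). POLQ (1.62, adjusted p = 1.8e-08, SE 0.207) and ATR (1.55, adjusted p = 1.7e-10, SE 0.16) followed, both higher in PEA2 and lower in PEO4. CHEK1 fell in CP70 and rose in the other pairs relative to promoters, with differences of 1.42 (adjusted p = 4.3e-06, SE 0.208) against PEA and 1.19 (adjusted p = 1.5e-05, SE 0.173) against PEO. With the 5 Mb medians removed, the sign turned for ATR in the PEA minus PEO difference (-1.15) and for CHEK1 in the PEA minus A2780 difference (-0.74). The pairs share no libraries.

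**Figure D5:**
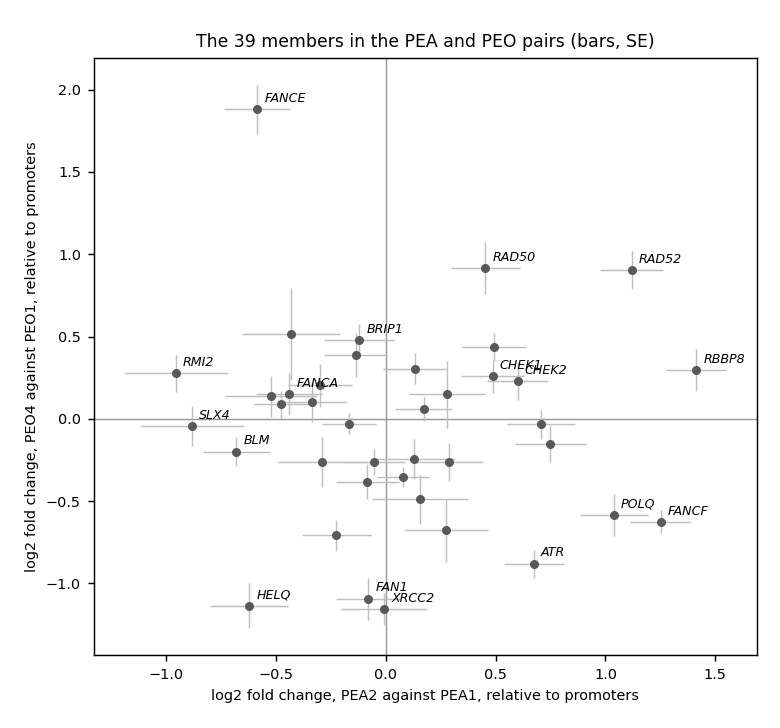
Log2 fold change relative to promoters of the 39 members in the PEA pair (horizontal) and the PEO pair (vertical), with SE bars. FANCE sits alone at the upper left and FANCF, POLQ and ATR at the lower right, while RAD52 is higher in both, at 1.12 and 0.90.

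Across the 3 pairs together no member passed the test between resistant and sensitive lines. With the mean of each line as 1 value and the pair as a block, 0 of 39 passed an adjusted p of 0.05 by limma (start windows 0%), and 0 had an unadjusted p under 0.05. Counting the 18 libraries as if they were replicates of resistance gave 6. RAD52 had the smallest p, at a mean of 0.69 log2 units (limma adjusted p = 1, SE 0.315). RAD50, called higher in each pair, gave 0.59 (SE 0.305) and BLM, called lower in each, -0.42 (SE 0.272). Of the other members, 8 were called in no pair, BRCA2, RAD51C, RAD51D, XRCC3, NBN, FANCG, FANCM and RMI1, and 7 were called in opposite directions in different pairs, ATR, CHEK1, CHEK2, FANCE, FANCF, RMI2 and POLQ. These patterns, with those of RAD50 and BLM, are relative to promoters. Their shares over all start windows were not counted, so they cannot be called particular to the members. Over the 7 scalings, the 8 members without a call were called lower in PEA2 in 5 (BRCA2, RMI1), 4 (RAD51C, XRCC3, FANCG), 3 (NBN, FANCM) or 1 (RAD51D). In PEO4 RMI1 was called higher in 4, BRCA2 in none and the rest in 1 to 3, with XRCC3 also lower in 1.

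A further 52 genes of the same pathways were examined in the same way. Of these 50 had a window in the table, and 48, 48 and 49 could be tested in CP70, PEA2 and PEO4. Relative to promoters 3 were higher and 3 lower in CP70, 12 higher and 16 lower in PEA2, and 19 higher and 13 lower in PEO4, with medians of -0.08, -0.089 and 0.18. These are 6.25% and 6.25%, 25% and 33.3%, and 38.8% and 26.5% of the genes tested, beside 7.59% and 9.82%, 33.1% and 28.6%, and 28.6% and 31.4% of all start windows. EXO1, the long-range resection nuclease, fell in CP70 with a change of -0.86 (adjusted p = 0.00011, SE 0.121) and in PEO4 with one of -1.29 (adjusted p = 4.6e-14, SE 0.0961). In PEA2 WRN, a helicase, had the lowest value at -1.56 (adjusted p = 1.4e-09, SE 0.157) and RPA3, a subunit of the single-strand binding protein, the highest at 2.00 (adjusted p = 3.5e-08, SE 0.242). REV3L, the catalytic subunit of polymerase zeta, rose in CP70 by 0.99 (adjusted p = 1.3e-05, SE 0.112), and MDC1, a mediator of break signalling, rose in PEO4 by 1.09 (adjusted p = 3.3e-11, SE 0.106). Over the 7 scalings WRN stayed lower (-2.33 to -0.55) and RPA3 higher (1.16 to 2.00) in PEA2 and REV3L above 0 in CP70 (0.15 to 1.57). The sign turned for EXO1 in CP70 (-0.92 to 0.20) and PEO4 (-1.30 to 0.66) and for MDC1 (-0.077 to 1.41).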

How the data were processed

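ATAC-seq of 18 libraries, 3 from each of 6 lines, gave the accessibility of chromatin. The authors removed duplicates with Picard, aligned reads to hg19 with Bowtie2 and counted them in tiled windows of about 1 kb, and deposited FPKM, which at one window length equals RPM (reads scaled to library size) up to a constant. The values show windows of 1001 bp at steps of 900 bp, so neighbours share 101 bp, and each window listed exceeded 2 FPKM in at least 2 libraries. All values were whole multiples of 1 read within 0.01 read, and totals of 8963079 to 60435027 reads followed from them.

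Start windows were taken from GENCODE release 44 on GRCh37, whose chromosome lengths matched the table's window numbering at 23 of 23 steps. Windows with a mean over 1 FPKM in the libraries used were tested with limma 3.58.1 (R 4.3.3, trended variance) on log2(FPKM + 0.1), as deposited and after subtracting each library's median over coding-gene start windows, with Benjamini-Hochberg adjustment over all windows tested. Adjusted p-values are from limma unless edgeR is named. Fold changes are on that scale and understate changes of low windows. Differences between pairs used an interaction term, the 6 lines an F-test, and resistance over pairs the line means with a pair block. edgeR 4.0.16 (quasi-likelihood) on the recovered counts, other pseudocounts, filters, scalings and left-out libraries were alternatives. The limma step was tested on simulated data, against limits set after its output was seen. Calls at about 1 log2 unit were often missed in that test. It changed few windows at a fixed spread, so its miss rate need not hold for these data. A member with no call may still differ, by an amount that its SE limits, as for RAD51B in CP70 (-0.57, SE 0.308). Neighbouring windows were grouped in 5 Mb bins. Sequences were read from GRCh37 with pysam 0.24.0.

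Always named were BRCA1, BRCA2, PALB2, RAD51C, RAD51D, ATM, CHEK1, FANCA, FANCC, FANCD2, FANCG and NBN. The rule added, per pair, up to 4 called members with the largest rise and 4 with the largest fall among those whose libraries did not overlap, the 5 highest and 5 lowest in level, and members whose change differed between pairs. Called members outside this rule were chosen with their values in view. The members and gene lists were chosen with earlier results of these data known. Replicate numbers did not pair the samples (correlations of deviations -0.23 to 0.096 over 9 same-numbered pairs, none above 0.1), and replicates differed by 1.09 to 3.38 times the sampling noise in chi-square per window, so none was counted as 1 library deposited again. A further gene of the pathway list and a further promoter sequence are not reported here.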

Additional observations from a re-analysis of the deposited data

Results flagged for a closer look

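These members changed differently in different pairs by the interaction test, each value being the difference of the log2 fold changes relative to promoters. For the PEA minus the A2780 pair they were CHEK1 at 1.42 (adjusted p = 4.3e-06, SE 0.208), RBBP8 at 1.42 (adjusted p = 1.9e-06, SE 0.196), FANCF at 1.39 (adjusted p = 5.9e-06, SE 0.209), CHEK2 at 1.09 (adjusted p = 2.2e-05, SE 0.183) and RAD52 at 1.08 (adjusted p = 4.7e-05, SE 0.193). For the PEO minus the A2780 pair they were FANCE at 1.85 (adjusted p = 4.7e-06, SE 0.245), FAN1 at -1.32 (adjusted p = 9.2e-05, SE 0.225) and CHEK1 at 1.19 (adjusted p = 1.5e-05, SE 0.173). For the PEA minus the PEO pair they were FANCE at -2.46 (adjusted p = 2.4e-12, SE 0.211), FANCF at 1.88 (adjusted p = 1.1e-12, SE 0.156), POLQ at 1.62 (adjusted p = 1.8e-08, SE 0.207), ATR at 1.55 (adjusted p = 1.7e-10, SE 0.16), RMI2 at -1.23 (adjusted p = 1.2e-05, SE 0.226), XRCC2 at 1.15 (adjusted p = 1.9e-06, SE 0.188), RBBP8 at 1.12 (adjusted p = 9.5e-06, SE 0.202) and FAN1 at 1.01 (adjusted p = 2.1e-05, SE 0.194). The last, FAN1, lies at the limit of 1 and fell below it, to between 0.94 and 0.99, without any of 6 single libraries (PEO1 replicate 1, PEO4 replicate 1 or 2, PEA1 replicate 3, PEA2 replicate 1 or 2), while its adjusted p stayed under 0.001. RBBP8 in the PEA minus PEO comparison fell to 1.00 and 0.99 without PEO1 replicate 1 or PEA1 replicate 2, and RAD52 in the PEA minus A2780 comparison to 0.99 and 0.97 without CP70 replicate 2 or PEA1 replicate 3. With the median change of each 5 Mb bin removed, the sign turned for 7 of these 16: RAD52 (-0.73), RBBP8 (-0.67) and CHEK1 (-0.74) in the PEA minus A2780 difference, and XRCC2 (-0.76), RBBP8 (-1.13), ATR (-1.15) and FAN1 (-0.34) in the PEA minus PEO difference. A further 6 were weaker and 3 stayed the same. Centred on all windows, 9 of the 16 were weaker and 5 stayed the same. The sign then turned for RAD52 in the PEA minus A2780 difference (-0.0039) and FAN1 in the PEA minus PEO difference (-0.072).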

How the results depend on the processing

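Without any 1 library the counts of called members relative to promoters ran from 2 to 8 in CP70, 17 to 22 in PEA2 and 19 to 23 in PEO4, those as deposited from 3 to 13, 11 to 23 and 17 to 22, and those at the strict thresholds from 0 to 0, 0 to 0 and 0 to 1. The differences ran from 4 to 7 (PEA minus A2780), 3 to 3 (PEO minus A2780) and 6 to 10 (PEA minus PEO), and the count over the 6 lines from 23 to 24. Relative to promoters the 6 calls of CP70 became 3 with only windows below the upper depth limit, 0 centred on all windows and 2 after removal of the 5 Mb median. The 19 calls of PEA2 became 6, with members above the depth limit not tested, 31 centred on all windows, 29 by quantile normalization and 30 by edgeR, and the 24 of PEO4 became 8 below the depth limit and 15 after removal of the 5 Mb median. As deposited, the 12 calls of CP70 became 7 with no filter, 0 centred on all windows, 2 after removal of the 5 Mb median and 7 by GC-matched centring, the 17 of PEA2 became 8 below the depth limit, 31 centred on all windows, 29 by quantile normalization and 28 after removal of the 5 Mb median, and the 20 of PEO4 became 8 below the depth limit. At the strict thresholds 1 member passed in PEO4 when centred on all windows or quantile normalized. The 5 differences PEA minus A2780 became 3 with a pseudocount of 1, 0 below the depth limit, 18 centred on all windows, 11 by quantile normalization and 2 after removal of the 5 Mb median, and the 8 PEA minus PEO became 5, 2, 17, 17 and 15. Resistance over the pairs gave 6 with 18 libraries as replicates. Other than through fewer windows or libraries tested, the cause was not tested.

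Of the changes of named genes and of every other call relative to promoters, the sign turned after removal of the 5 Mb median for BRCA1 in PEA2 (0.078), PALB2 in PEA2 (-0.72), ATM in PEO4 (0.35), CHEK1 in CP70 (0.12), CHEK1 in PEA2 (-0.85), FANCD2 in PEA2 (-0.52), NBN in PEA2 (-0.45), SLX4 in PEA2 (0.49), RBBP8 in PEA2 (-0.47), FANCF in PEA2 (-0.087), RAD52 in PEA2 (-0.61), HELQ in PEO4 (0.24), ATR in PEO4 (0.14), BRIP1 in PEO4 (-0.065), RAD50 in PEA2 (-0.25), BLM in PEO4 (0.44), MRE11 in PEA2 (-0.56), ATR in PEA2 (-0.83), CHEK2 in PEA2 (-0.47), FAAP20 in PEA2 (-0.54), FANCF in PEO4 (0.093), FANCL in PEO4 (0.30), UBE2T in PEO4 (0.17), RAD52 in the difference PEA minus A2780 (-0.73), RBBP8 in the difference PEA minus A2780 (-0.67), CHEK1 in the difference PEA minus A2780 (-0.74), XRCC2 in the difference PEA minus PEO (-0.76), RBBP8 in the difference PEA minus PEO (-1.13), ATR in the difference PEA minus PEO (-1.15) and FAN1 in the difference PEA minus PEO (-0.34). Centred on all windows it turned for PALB2 in PEA2 (-0.019), RAD51D in PEA2 (-0.49), ATM in PEO4 (0.053), CHEK1 in PEA2 (-0.28), FANCD2 in PEA2 (-0.61), NBN in PEA2 (-0.60), RAD50 in PEA2 (-0.31), BLM in PEO4 (0.12), MRE11 in PEA2 (-0.061), ATR in PEA2 (-0.094), CHEK2 in PEA2 (-0.17), FAAP20 in PEA2 (-0.28), FANCL in PEO4 (0.054), RAD52 in the difference PEA minus A2780 (-0.0039) and FAN1 in the difference PEA minus PEO (-0.072), by edgeR for ATM in PEO4 (0.033), CHEK1 in PEA2 (-0.15), FANCD2 in PEA2 (-0.50), NBN in PEA2 (-0.46), RAD50 in PEA2 (-0.13), BLM in PEO4 (0.090), FAAP20 in PEA2 (-0.10) and FANCL in PEO4 (0.026), by quantile normalization for FANCD2 in PEA2 (-0.61) and RAD50 in PEA2 (-0.018), and as deposited for FANCA in CP70 (0.12), CHEK2 in CP70 (0.083) and BLM in CP70 (0.20). With the 5 Mb median removed, the median log2 fold change of all start windows was -0.43 in PEA2 and 0.21 in PEO4. Centred on all windows it was -0.74 and 0.30. Values of single genes by edgeR, other pseudocounts and filters, values of called members outside the naming rule, scalings of other pathway genes and all values of single differences were alternatives chosen after seeing the data.

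With the replicate number as a block, the calls relative to promoters were 3 in CP70, 19 in PEA2 and 24 in PEO4, those as deposited 9, 15 and 25, and the differences 5, 3 and 8. The numbers pair no samples by the correlation of their deviations, although in the PEO pair each library correlated best with its own number (0.032 to 0.092). Depth limits the lowest members, which had 9 reads in 1 PEO1 library.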
